A study of Mus musculus with 6 samples.

Results

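The genes described here are 10 feedback and target genes of the ERK pathway in mouse skin tumours. The feedback genes are the dual-specificity phosphatases Dusp4, Dusp5 and Dusp6, the Sprouty genes Spry1, Spry2 and Spry4, and the Spred genes Spred1 and Spred2. The target genes are the ETS transcription factors Etv4 and Etv5. All 10 were chosen by name, with earlier results of these data known, from the 37074 gene names on the array. The array carried 17 probes for them among 56605 non-control probes, and every probe was kept apart. Of these 17, 15 entered the test, which ran over the 29727 probes that stood well above background in all tumours of one genotype or both. The probes left out of the test were the only Spry4 probe and the dimmest of the 3 Spred2 probes.

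ERK is the last kinase of the Ras-Raf-MEK-ERK cascade, which carries growth factor signals from the cell surface to the nucleus. Active ERK switches on genes whose products shut the cascade down again, and also target genes such as Etv4 and Etv5, which encode transcription factors. The RNA of such genes is widely used as a readout of the signal. In mouse skin painted with DMBA and TPA, the carcinogen DMBA typically leaves an activating Hras mutation, and TPA then drives the growth of papillomas.

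The study compared skin tumours of male P2ry6+/+ mice (wild-type) with those of male P2ry6-/- mice (knockout), which carry an inactivated gene for the UDP receptor P2Y6. Mice of both genotypes, 12 of each, had received one application of 195 nmol DMBA in 200 µL acetone on shaved back skin, then 16 nmol TPA 2 times a week until week 22, so no untreated skin or untreated tumour enters the comparison. RNA of 3 tumours per genotype was hybridised, each to a one-colour Agilent array. The labels give no age or strain, and do not say whether the 3 tumours of a genotype came from 3 mice; the p-values measure the spread between these tumours only.

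All values below are log2 signals relative to the 75th percentile of the same array, so 0 is the level of that percentile, and a difference is knockout minus wild-type. Levels of different probes are not comparable on an array, and each probe is compared only with itself across tumours. In bulk tumour RNA, fewer cells of a type and less RNA per cell cannot be told apart. All 6 arrays lay on 1 slide and 1 scan, and no spot was saturated. Slide row 1 held only wild-type and row 3 only knockout arrays. The share of non-control spots well above background was 56.3%, 59.4% and 56.5% on wild-type arrays. On knockout arrays it was lower, at 54.2%, 55.3% and 56.1%. The label of skin tumour was set against 7 basal keratinocyte markers, and all 7 were well above background on every array. The 2 P2ry6 probes were not lower in the tumours labelled knockout: their differences were 0.41 (adjusted p = 0.468) and 0.54 (adjusted p = 0.410), and no label names the part of the gene that is missing, so these probes are no check of the genotype labels. Marker lists of several cell types were apart between genotypes. The mean level of 11 skeletal muscle markers ran from -1.26 to 3.37 in wild-type and from -4.87 to -4.54 in knockout tumours, with 6 of the 11 not well above background on any knockout array. Fat cell markers ran from -0.98 to 0.41 against -3.29 to -3.10, with 4 of 7 not well above background on any knockout array. Within that list Adipoq, Cfd, Cidec and Retn were lower in knockout tumours without overlap. Fabp4 (-0.54) and Plin1 (-1.34) overlapped, and Lep was higher in knockout tumours without overlap, at 0.38. Hair follicle markers ran from -1.74 to 1.68 against -3.29 to -1.07, which overlapped, and sebaceous gland markers from 0.23 to 3.88 against -1.18 to -0.43. In the other direction, 7 suprabasal keratinocyte markers ran from 5.85 to 6.47 in wild-type and from 6.52 to 6.89 in knockout tumours. The mean of 6 T cell markers ran from -2.10 to -1.95 against -1.91 to -1.52. That mean includes Cd8a, which was not well above background on any array, so its narrow gap is not read as a difference. Among the others, Cd3e had no overlap, at 0.48, while Cd3d, Cd3g, Cd4 and Lck overlapped, with Lck at -0.19. The part of these cell types in the results below was not tested.

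Across the 10 genes, Dusp4 stood out by size, at 5.60-fold and 4.15-fold lower in knockout tumours by its 2 probes. Spry2, Spred1 and Etv4 had smaller differences in the same direction, with every knockout below every wild-type tumour on 5 of their 6 probes. They are named here for these gaps. Over all 15 member probes, 7 had knockout below wild-type tumours without overlap, against 6.93% of all probes tested. Dusp5, Spry1, Spred2 and Etv5 overlapped between genotypes, as did Dusp6, where 1 wild-type tumour was high. No member probe passed an adjusted p of 0.05 in limma's moderated test with Benjamini-Hochberg adjustment over all probes tested, a threshold that 0.151% of all probes passed, 0.0908% with knockout lower and 0.0606% with knockout higher.

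**Figure D1:**
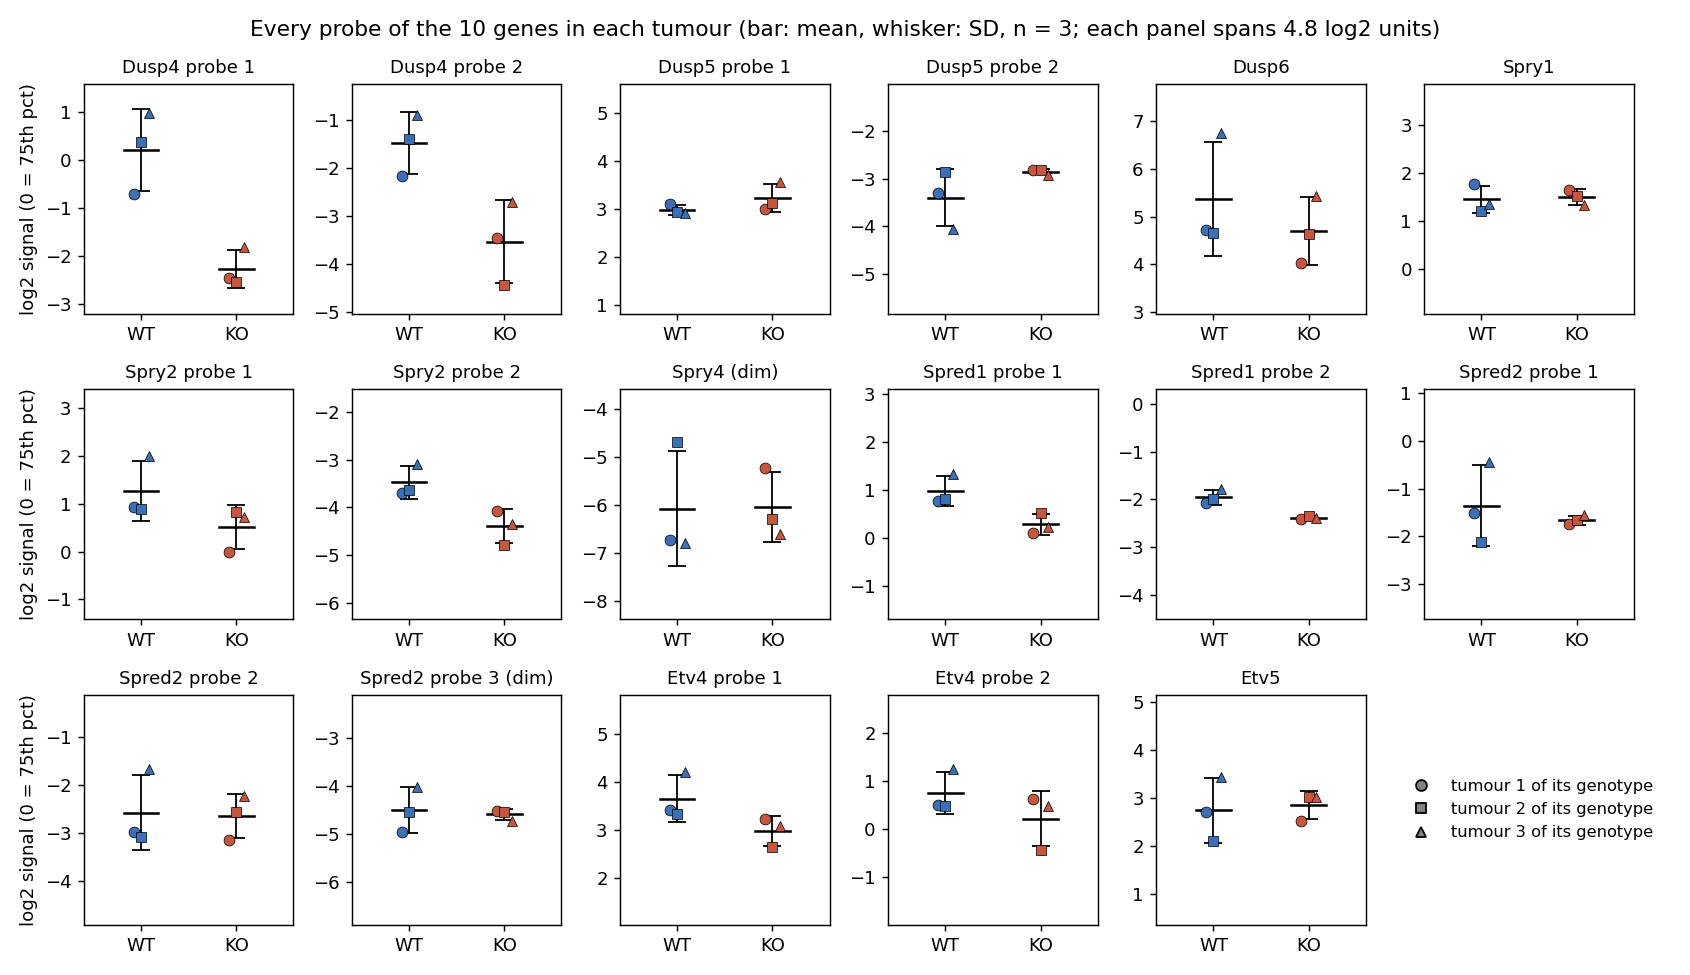
Log2 signal of every probe (y axis, 0 is the array's 75th percentile) in 3 wild-type (WT, blue) and 3 knockout (KO, red) tumours, with the mean as a bar and the SD as a whisker; the symbol gives the tumour's number within its genotype. Both Dusp4 panels show the genotypes well apart, Spry2 and Spred1 show narrow gaps, and the third wild-type tumour is the highest point in most panels.

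Dusp4 encodes a nuclear phosphatase, also called MKP-2, that takes the activating phosphates off ERK and its relatives. It has 2 probes, and the first 30 bases of each are shown because they read different stretches of the locus. Probe 1 was designed on a cDNA clone record and lies at chr8:35884806-35884865 on the plus strand of mm9, the build of the array file. Probe 2 was designed on the RefSeq transcript and lies at chr8:35882045-35882104. Exon and UTR annotation of that build was not used here.
Dusp4 probe 1: tcaagggacttcagtaagataacaatgcaa
Dusp4 probe 2: aataacggcggtttccgctgccagagaaga

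Dusp4 probe 1 read -0.71, 0.38 and 0.98 in wild-type tumours 1, 2 and 3, and -2.46, -2.55 and -1.81 in knockout tumours 1, 2 and 3. The genotypes did not overlap, and the lowest wild-type tumour stood above the highest knockout tumour by more than either genotype's SD. The means were 0.21 ± 0.86 (SD, n = 3) and -2.27 ± 0.40 (SD, n = 3). The difference was -2.48 (SE 0.44, 95% interval -3.52 to -1.45), a 5.60-fold lower signal. limma gave an unadjusted p of 0.00076, which ranks 159 among the 29727 probes, and an adjusted p of 0.141. An exact two-sided permutation test over the 6 tumours gave p = 0.1, the smallest that 3 against 3 allows.

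Dusp4 probe 2 read -2.16, -1.39 and -0.88 in wild-type and -3.45, -4.43 and -2.70 in knockout tumours, where 2 of 3 arrays were well above background. Again the genotypes did not overlap, and the order of the wild-type tumours was that of probe 1. The difference was -2.05 (SE 0.49, 95% interval -3.22 to -0.89; unadjusted p = 0.0043 and adjusted p = 0.210 in limma).

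Within parts of the slide the Dusp4 difference varied in size; its sign there is fixed by the lack of overlap. In slide column 1, with 1 wild-type and 2 knockout arrays, it was -2.88 and -2.55 for the 2 probes, and in column 2, with 2 wild-type and 1 knockout arrays, -1.94 and -1.18. Row 2 held 1 array of each genotype, at -3.44 and -2.58. After normexp background correction in place of the scanner's own, probe 1 gave -1.89 and the dimmer probe 2 gave -0.99. By mean level, the muscle, fat and sebaceous marker lists given above were lower in the same tumours as Dusp4, and their part in its difference was not tested.

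**Figure D2:**
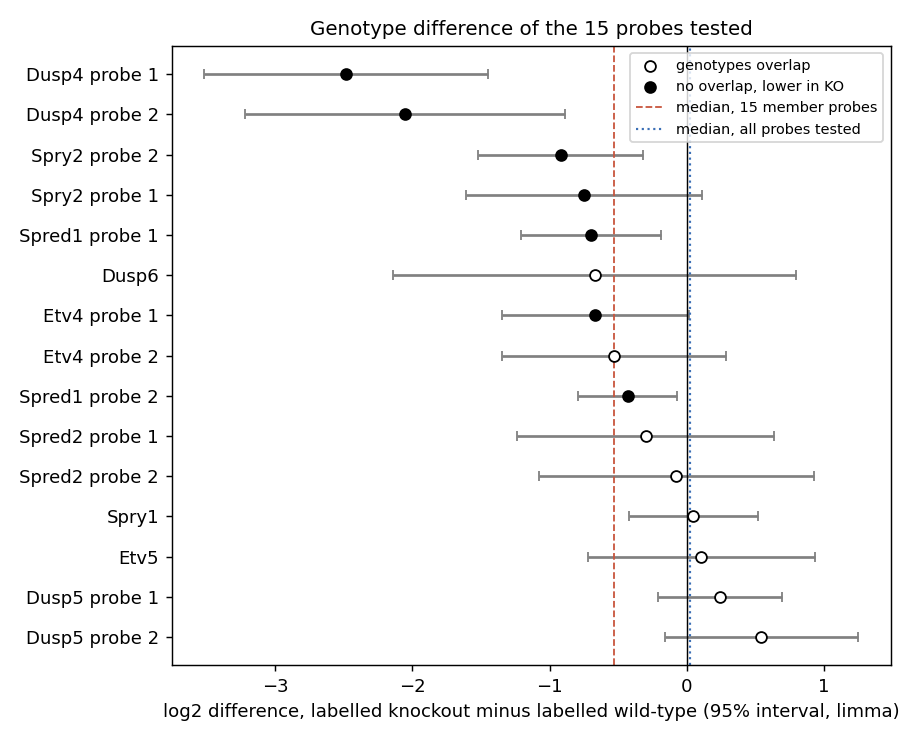
Log2 difference, knockout minus wild-type (x axis), of the 15 probes tested, with 95% intervals from limma; filled points are probes whose genotypes did not overlap. Dusp4 lies farthest from 0, at -2.48 and -2.05, the 5 other filled points lie between -0.92 and -0.43, and the dashed and dotted lines mark the medians of the member probes (-0.53) and of all probes tested (0.025).

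Dusp6, also called MKP-3, is the cytoplasmic phosphatase specific to ERK and a standard marker of ERK output. Its single probe lies at chr10:98729985-98730044 (mm9). It read 4.72, 4.65 and 6.75 in wild-type and 4.03, 4.64 and 5.43 in knockout tumours. The genotypes overlapped, and wild-type tumour 3 stood far above the other 5. The difference was -0.67 (SE 0.62, 95% interval -2.14 to 0.80, adjusted p = 0.695 in limma). Without wild-type tumour 3 it was 0.015, and in slide columns 1 and 2 it was -0.31 and -0.30.

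Dusp5 is the nuclear, ERK-specific member of the same family. Its brighter probe read 3.10, 2.93 and 2.91 in wild-type and 3.00, 3.12 and 3.55 in knockout tumours, a narrow range with overlap. The difference was 0.24 (SE 0.19, 95% interval -0.21 to 0.70, adjusted p = 0.640). Its dimmer probe read -3.29, -2.86 and -4.05 against -2.82, -2.82 and -2.92, a difference of 0.55 (SE 0.30, adjusted p = 0.499). The brighter probe gave 0.08 without knockout tumour 3, and the dimmer 0.22 without wild-type tumour 3 and 0.34 with normexp correction. Both Dusp5 differences had the opposite sign to that of Dusp4, and the 2 probes followed each other loosely, with Pearson r = 0.346 over the 6 arrays.

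The Sprouty proteins block growth factor receptors from activating Ras and Raf. For Spry2, the brighter probe (chr14:106291385-106291444, minus strand) read 0.92, 0.89 and 1.98 in wild-type and -0.01, 0.82 and 0.73 in knockout tumours. Every knockout tumour lay below every wild-type tumour, but by as little as the step from 0.82 to 0.89. The difference was -0.75 (SE 0.36, 95% interval -1.61 to 0.11, adjusted p = 0.446), and -0.39 without wild-type tumour 3 or -0.49 without knockout tumour 1. The dimmer probe (chr14:106291901-106291960) read -3.71, -3.64 and -3.08 against -4.07, -4.78 and -4.34, with 2 of 3 knockout arrays well above background. Its difference was -0.92 (SE 0.25, 95% interval -1.52 to -0.32; unadjusted p = 0.0088, adjusted p = 0.253), and -0.20 after normexp correction.

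Spry1 was level across the tumours. It read 1.78, 1.22 and 1.37 in wild-type and 1.66, 1.53 and 1.34 in knockout tumours, a difference of 0.05 (SE 0.20, 95% interval -0.42 to 0.52, adjusted p = 0.941). The interval excludes a change of the size measured for Dusp4 in either direction. Its sign turned with the scaling, at -0.00071 when arrays were centred on the median. Spry4 was well above background on 1 of 3 wild-type and 0 of 3 knockout arrays, so no fold is given for it.

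The Spred proteins hold back Ras by bringing the GTPase-activating protein neurofibromin to the membrane. Spred1 has a brighter probe at chr2:117007850-117007909 and a dimmer one at chr2:116997721-116997780, both on the plus strand of mm9. The brighter probe read 0.78, 0.83 and 1.35 in wild-type and 0.10, 0.52 and 0.23 in knockout tumours. The dimmer probe read -2.08, -2.00 and -1.78 against -2.42, -2.35 and -2.38. On both probes the genotypes were apart, with a tight knockout group on the dimmer one. The differences were -0.70 (SE 0.22, 95% interval -1.21 to -0.19; unadjusted p = 0.014, adjusted p = 0.285) and -0.43 (SE 0.15; unadjusted p = 0.025, adjusted p = 0.328). After normexp correction the dimmer probe gave -0.18. The 2 probes ran together across the arrays with Pearson r = 0.969.

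Spred2 gave no such gap. Its brightest probe read -1.51, -2.12 and -0.45 in wild-type and -1.75, -1.67 and -1.56 in knockout tumours, where the wild-type values surrounded the knockout ones. The difference was -0.30 (SE 0.40, adjusted p = 0.793), and 0.16 without wild-type tumour 3. The second probe gave -0.08 (SE 0.42, adjusted p = 0.960), a sign that turned under normexp correction, array weights and the slide column as a block. The third, whose 60 bases are spread over chr11:19905935-19908456 and so are not contiguous in the genome, was well above background on 2 of 3 wild-type and 0 of 3 knockout arrays.

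Etv4 and Etv5 belong to the PEA3 group of ETS factors, which growth factor signalling induces and which in turn bind promoters of other target genes. The Etv4 probe 1 and the Etv5 probe are shown over 30 bases because both hold the letters of the polyadenylation signal AATAAA, here in capitals. The Etv4 stretch is bases 21 to 50 of a probe at chr11:101631057-101631116, and the Etv5 stretch bases 27 to 56 of a probe at chr16:22381387-22381446 (mm9, minus strand).
Etv4 probe 1: atgccagaccttAATAAAgcctctgcttct
Etv5: tgtactgtgtacAATAAAgaagattgcttt

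Etv4 probe 1 read 3.42, 3.33 and 4.22 in wild-type and 3.24, 2.64 and 3.09 in knockout tumours. The genotypes did not overlap, though wild-type tumour 2 and knockout tumour 1 were close. The difference was -0.66 (SE 0.29, 95% interval -1.35 to 0.02, adjusted p = 0.403), and -0.38 without wild-type tumour 3. Probe 2 read 0.50, 0.48 and 1.25 against 0.62, -0.44 and 0.48, which overlapped, with a difference of -0.53 (SE 0.35, adjusted p = 0.570), and -0.20 without knockout tumour 2. Etv5 read 2.70, 2.09 and 3.45 in wild-type and 2.53, 3.01 and 3.03 in knockout tumours. Its knockout values lay inside the wild-type range, and the difference was 0.11 (SE 0.35, 95% interval -0.72 to 0.94, adjusted p = 0.926).

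Counted together, 11 of the 15 member probes had a difference below 0, where 46.7% of all probes tested did. The other 4 were above 0, against 53.3%. The members were chosen with earlier results of these data known, so the counts and medians here are descriptions. The genotypes did not overlap on 7 member probes, against 19.0% of all probes. On all 7 the knockout tumours were lower, a pattern of 6.93% of all probes, and on 0 higher, against 12.0%. Of the 7, Dusp4 probe 2 and the dimmer Spry2 probe entered the test only through the wild-type group, where they were higher. Of the 13 member probes well above background on all 6 arrays, 5 had no overlap. The share over all probes of that kind was not counted. The 7 probes came from 4 genes, since Dusp4, Spry2 and Spred1 each gave 2, and probes of a gene share their target. At an unadjusted p under 0.05, 5 member probes were lower in knockout tumours and 0 higher, against 4.89% and 7.85% of all probes; the 5 belong to Dusp4, Spry2 and Spred1. The median difference was -0.53 over the 15 member probes and 0.025 over all 29727. Over probes well above background on all 6 arrays, the medians were -0.43 for 13 member probes and 0.031 for all. With the brightest probe of each gene alone, 4 of 9 genes had no overlap, and the share over all genes read this way was not counted.

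Wild-type tumour 3 stood high for most members. Taking the brightest tested probe of each of 9 genes, it had the highest value in 7 of them, and its mean deviation from the 6-tumour mean was 0.87. The other wild-type tumours stood at 0.05 and -0.06, next to knockout tumour 3 at -0.08, with knockout tumours 1 and 2 at -0.49 and -0.30. Without wild-type tumour 3 the median over the 15 member probes was -0.27 and 8 of 15 were below 0. Dusp4 kept a difference of -2.10 on probe 1 without that tumour.

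**Figure D3:**
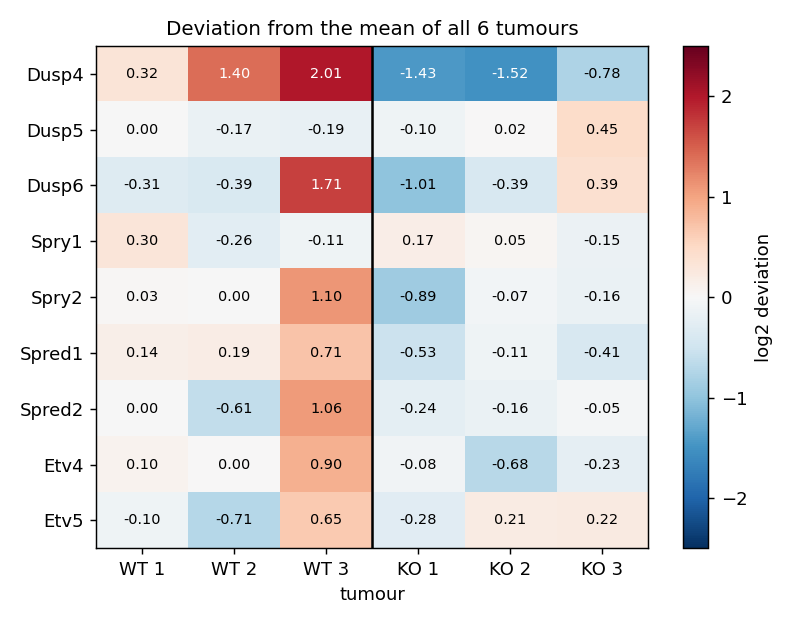
Deviation of the brightest tested probe of each of 9 genes from its mean over the 6 tumours (colour and printed value, log2), with wild-type (WT) and knockout (KO) tumours split by the black line. Wild-type tumour 3 holds the highest value for 7 of 9 genes, and in the rows of Dusp4, Spred1 and Etv4 all wild-type values lie above 0 and all knockout values below it, with the widest spread for Dusp4.

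Some members varied alike across tumours and others did not. Over the 6 arrays and the brightest probe of each gene, Spry2 ran with Spred1 (Pearson r = 0.924) and with Dusp6 (r = 0.903), and Dusp4 with Spred1 (r = 0.888). Dusp5 ran against Spred1 (r = -0.562) and against Dusp4 (r = -0.486). These are descriptions of 36 pairs over 6 tumours that share the slide, the scaling and the genotype split. Probes of one gene ran together with r = 0.958 for Dusp4, 0.937 for Etv4, 0.853 for Spred2 and 0.628 for Spry2.

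The 250 bases before the start of 3 genes that varied alike, Dusp6, Spred1 and Spry2, and of Dusp5, which did not, are shown with matches to 4 short motifs in capitals: the ETS core motifs CGGAAG and AGGAAG, the AP-1 motif TGANTCA and the CRE TGACGTCA, each on both strands. The sequences are RefSeq's for GRCm38.p6, a later build than that of the probes, and 7 of the 10 genes matched the promoter table, with 8 windows. Positions are Dusp6 at chr10:99262981-99263230 and Spred1 at chr2:117120821-117121070 on the plus strand, Spry2 at chr14:105896820-105897069 on the minus strand, and Dusp5 at chr19:53528895-53529144 on the plus strand.
Dusp6: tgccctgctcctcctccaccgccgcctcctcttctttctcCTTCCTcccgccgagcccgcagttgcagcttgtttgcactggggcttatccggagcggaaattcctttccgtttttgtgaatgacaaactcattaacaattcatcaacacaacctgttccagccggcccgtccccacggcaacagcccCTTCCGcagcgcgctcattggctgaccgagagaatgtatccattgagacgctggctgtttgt
Spred1: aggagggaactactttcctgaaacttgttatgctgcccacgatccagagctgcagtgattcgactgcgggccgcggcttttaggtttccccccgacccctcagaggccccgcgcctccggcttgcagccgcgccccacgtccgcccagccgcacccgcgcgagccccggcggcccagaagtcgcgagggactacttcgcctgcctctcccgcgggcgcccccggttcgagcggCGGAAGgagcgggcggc
Spry2: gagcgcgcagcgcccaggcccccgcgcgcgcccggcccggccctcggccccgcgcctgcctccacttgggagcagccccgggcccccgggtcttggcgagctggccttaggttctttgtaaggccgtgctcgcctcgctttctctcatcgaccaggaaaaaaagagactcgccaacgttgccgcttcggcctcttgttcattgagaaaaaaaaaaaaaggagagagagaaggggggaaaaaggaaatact
Dusp5: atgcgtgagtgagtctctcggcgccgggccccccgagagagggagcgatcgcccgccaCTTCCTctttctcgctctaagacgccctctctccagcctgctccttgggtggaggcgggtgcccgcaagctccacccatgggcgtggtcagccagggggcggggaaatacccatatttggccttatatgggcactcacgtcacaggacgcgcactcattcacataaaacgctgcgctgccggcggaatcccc

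Dusp6 had 1 CGGAAG match, on the minus strand 62 bases before the start, and 1 AGGAAG match 210 bases before it. Spred1 had 1 CGGAAG match 17 bases before its start. The Spry2 window held none of the 4 motifs, and Dusp5 had 1 AGGAAG match 192 bases before its start. CGGAAG was present in 3 of the 8 member windows and in 13.6% of all 32851 windows of the same length, and AGGAAG in 3 of 8 and 29.5%. TGANTCA and TGACGTCA were in 0 of 8, against 6.75% and 1.55% of all windows. A match is a run of letters and not a measured binding site.

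The wider pathway was read from 6 gene lists, each gene by its brightest probe. In all 6 lists 0 genes passed the adjusted threshold in limma, and 0 to 2 genes per list were lower, and 0 to 2 higher, at an unadjusted p under 0.05. Among 18 tested genes of a list of other ERK feedback and target genes, 11 were below 0 and 7 above, 1 had no overlap in each direction, and the median was -0.08. Etv1, the third PEA3 factor, read -1.66, -1.82 and -2.25 in wild-type and -1.60, -0.43 and -0.54 in knockout tumours, a difference of 1.05 (adjusted p = 0.297). It thus had the opposite sign to Etv4, with genotypes just apart. Dusp9, another ERK-directed phosphatase, differed by -1.03 (adjusted p = 0.321, 2 of 3 knockout arrays well above background), or -0.35 with normexp correction and -0.63 without knockout tumour 2. Fosl1, an AP-1 subunit, differed by -0.88 (adjusted p = 0.408) and Phlda1 by -0.78 (adjusted p = 0.445), both with overlap. Fosl1 gave -0.52 without knockout tumour 2, and Phlda1 -0.46 without wild-type tumour 3 and -0.49 with array weights.

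Of the phosphatases that act mainly on JNK and p38, 3 were tested, with a median of 0.07. Dusp16 differed by 0.64 (adjusted p = 0.357), with its other probes at 0.48 and 0.73, while Dusp1 was at 0.07 and Dusp8 at 0.00, both with signs that turned under alternatives. The third wild-type tumour was again high among the 10 immediate early genes, which serum and growth factors induce within minutes. Egr1 read 3.08, 2.63 and 5.17 in wild-type and 2.37, 3.17 and 3.02 in knockout tumours, and its difference of -0.77 (adjusted p = 0.657) became 0.00015 without wild-type tumour 3. Egr2 (-1.38, adjusted p = 0.563) and Egr3 (-0.65, adjusted p = 0.659) also had their highest value there, at 4.86 and 3.04, and were -0.45 and -0.02 without it. Srf, whose product binds the promoters of many of these genes, differed by -0.29 (adjusted p = 0.509). It was the one immediate early gene with no overlap on its brightest probe. Of the 10 genes, 6 were below 0 and the median was -0.12.

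The cascade itself differed little. Of 22 genes listed for the Ras-ERK cascade, 9 were below 0 and 13 above, with a median of 0.04. The highest difference was that of Rasgrp1, a Ras exchange factor, at 0.67 with overlap (adjusted p = 0.342). Its other probe was at 0.54 (adjusted p = 0.255), with no overlap between genotypes. Gab1, a docking protein below receptors, differed by 0.57 (adjusted p = 0.480). Mapk3, which encodes ERK1, was the one gene of the list with no overlap on its brightest probe, at 0.36 (adjusted p = 0.553).

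Above the cascade, 8 of 18 tested receptors and ligands were below 0 and 10 above, with a median of 0.08. Fgf7, the keratinocyte growth factor that stromal cells make, read -2.72, -2.19 and -3.96 in the wild-type group, while on the knockout arrays it was never well above background. By the scanner's own background subtraction it was at least 2.67-fold lower in knockout tumours, counted from the lowest signal well above background. This bound does not carry over to the normexp values given below. Fgf7 had an adjusted p of 0.060 in limma. It entered the test only through the wild-type group, so its p rests on knockout values at the floor. Over the alternatives the adjusted p ran from 0.015 to 0.280, with 0.037 under median centring, 0.018 with array weights, 0.045 without wild-type tumour 2, 0.015 without wild-type tumour 3 and 0.151 without the filter on dim probes. With normexp correction the fitted difference was -0.84, against -3.53. The marker list of fibroblasts, a stromal cell type, ran from 1.61 to 3.56 in wild-type and from 2.62 to 4.08 in knockout tumours. Fgfr3 differed by 0.82 (adjusted p = 0.251), and its other probe by 0.98. Hgf, well above background on 1 of 3 wild-type and 3 of 3 knockout arrays, differed by 1.50 (adjusted p = 0.252), or 0.59 with normexp correction. Fgf1 differed by -1.10 (adjusted p = 0.418), or -0.55 without wild-type tumour 3, against 0.09 on another probe.

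Among 14 other ETS factors, 7 were below 0 and 7 above, with a median of 0.06. Erg, an ETS factor of endothelial cells, differed by -0.53 (adjusted p = 0.318), or -0.05 after normexp correction. Elf3, an epithelial ETS factor, differed by 1.04 (adjusted p = 0.368). Gabpa differed by -0.43 (adjusted p = 0.390; other probes -0.11 and -0.17) and Ets2, itself a target of ERK phosphorylation, by 0.40 (adjusted p = 0.440).

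**Figure D4:**
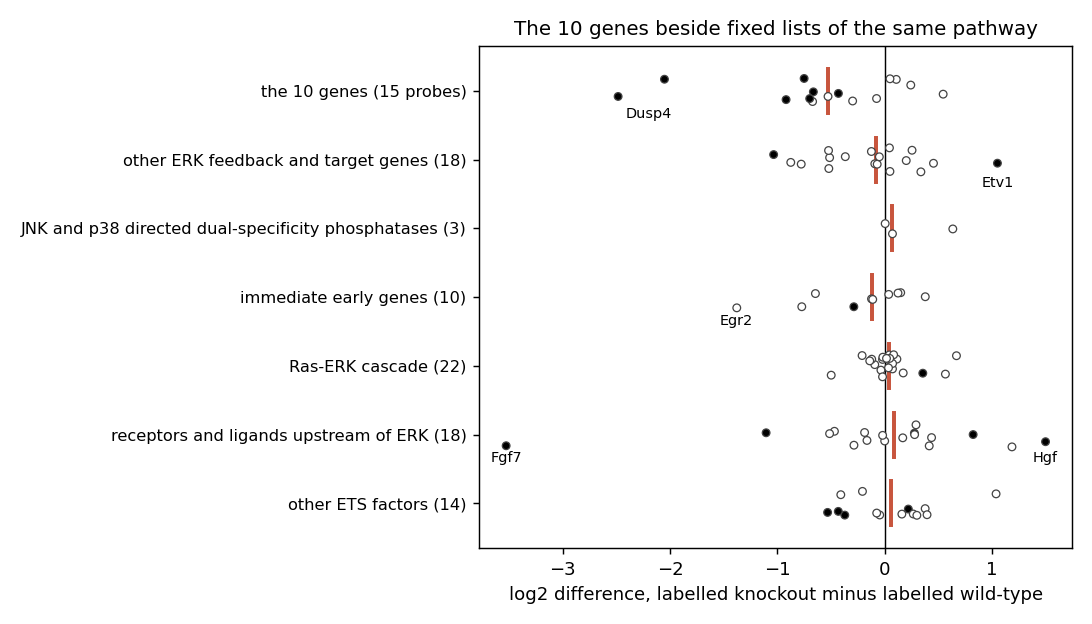
Log2 difference, knockout minus wild-type (x axis), of each tested gene in 6 pathway lists. The top row holds the 15 probes of the 10 feedback and target genes. Filled points have no overlap between genotypes and red bars are medians. The top row's median is -0.53 and those of the lists run from -0.12 to 0.08, and the points named are Dusp4, Etv1, Egr2, Fgf7 and Hgf.

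The genes with the most similar pattern were looked up by Pearson r over the 6 arrays among 21705 named probes well above background throughout. Each value is the highest of that many candidates over 6 points and is a description. For Dusp4 they were Rbmx2 (r = 0.9996), Gtf2e2 (r = 0.990) and Mtcl1 (r = 0.990). Only Mtcl1 approached the size of the Dusp4 difference, at -1.90 (SE 0.43, adjusted p = 0.193), against -0.38 for Rbmx2 and -0.18 for Gtf2e2. The closest genes to the other members were Zfp462 for Dusp6 (r = 0.995), Fhad1 for Dusp5 (r = 0.995), Dsg2, a desmosomal cadherin, for Spry2 (r = 0.992) and Gnai2 for Spred1 (r = 0.996). They were Sbf2 for Spry1 (r = 0.998), Hnrnpu for Spred2 (r = 0.995), Zfp7 for Etv4 (r = 0.993) and Gsk3b for Etv5 (r = 0.994).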

How the data were processed

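The submitters' processing notes name Agilent Feature Extraction 10.7.1.1 as the software behind the 6 deposited scanner files. The intensity used is the authors' background-subtracted signal per spot, per the file headers. It was turned into log2 minus the 75th percentile of non-control spots on its array. That percentile was at an intensity of 459 to 517 on wild-type and 394 to 423 on knockout arrays. Spots marked as outliers, 68 to 184 on an array, did not enter, and repeated spots were averaged by probe. A deposited value table, whose columns each have a median of 4.97 and follow the scanner log2 values (r of at least 0.9994), served as an alternative; its normalisation stays unknown. limma 3.58.1 in R 4.3.3 (lmFit, eBayes, two-sided, Benjamini-Hochberg, threshold 0.05) was fitted on genotype over all probes tested. Named are all member probes, P2ry6, up to 4 genes of smallest p per pathway list, and the best correlated genes; 1 gene so chosen is not reported here. The members and lists were chosen with earlier results of these data known. Alternatives were another background correction, scaling, filter, probe choice, variance model, value table, array weights, blocks and leaving out each array. The procedure was tested on simulated data with 200 changed probes. It recovered 0% of them at a log2 change of 0.5 or 1, and 74.5% at a change of 2. The number of arrays limits the precision.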

Additional observations from a re-analysis of the deposited data

How the results depend on the processing

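Over 18 alternatives, 249 of 262 values of the 15 member probes kept their direction and their side of the threshold, 13 changed sign, and no member probe passed under any. Dusp4 stayed below 0 throughout, from -3.44 to -1.89 on probe 1 (adjusted p 0.060 to 0.327 in limma) and from -2.58 to -0.99 on probe 2 (0.164 to 0.434). Leaving out 1 array cannot turn the sign of Dusp4 or of any other probe whose genotypes do not overlap. The number of all probes past the threshold, 45, was 14 with normexp, 20 without the filter, 94 with array weights, 6 where only probes bright on all arrays were kept, 0 with the slide row as a block (chosen after seeing the data, with only row 2 holding both genotypes) and 13 to 201 when 1 array was left out. Same-numbered tumours were not treated as pairs, since the labels do not say that a number pairs tumours. Correlations of deviations between same-numbered tumours were 0.096, 0.245 and 0.143. They were not compared with other pairs and cannot decide this. With the replicate number as a block, 6 probes passed. The members' median was -0.20 with normexp, -0.99 with the slide row and -0.68 to -0.27 with 1 array left out. Under normexp, 10 of 15 member probes were below 0. There 7 member probes had no overlap, and on 6 of these the knockout tumours were lower. With 1 probe per gene, 4 of 9 had no overlap, a count without a share over all genes.

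The signs that turned were all of differences that did not pass. Spred2 probe 2 was 0.02 with normexp, 0.12 with array weights, 0.16 with the slide column as a block and -0.33 to 0.38 with 1 array left out. Spry1 was -0.00071 with median centring, -0.10 with array weights and -0.068 to 0.21 with 1 left out. Etv5 was -0.92 with the slide row and -0.22 to 0.46 with 1 left out, Dusp6 -1.04 to 0.015 and Spred2 probe 1 -0.68 to 0.16. Of the list genes, Dusp8 was -0.046 with median centring, -0.00045 with array weights, -0.078 with the slide column and -0.10 to 0.091 with 1 left out. Rasgrp1 was -0.075 with the slide row, Dusp1 -0.14 to 0.24 and Egr1 -1.27 to 0.00015 with 1 left out. The cause was not tested.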
